A study of Drosophila melanogaster with 24 samples.

Results

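The 100 Drosophila melanogaster transcripts described here differed most between replicate pools of female flies kept under the same conditions. They were chosen from 16637 transcripts measured on 24 NimbleGen oligonucleotide arrays. A transcript's level is the mean log2 brightness of its probes, and 12134 transcripts had a mean level above 8 over all arrays. For each of these the SD over the 6 pools was taken in each of the 4 groups, and the 100 transcripts with the highest median of the 4 SDs are the members. The SDs and the departures of single pools from their group means therefore chose the members and are given as description, without a test. The group means took no part in the choice beyond the minimum level, so the diet and drug differences were tested.

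Each array held cDNA labelled with Cy3, made from about 35 whole female flies pooled at an age of 13 days. The groups were DR with RU486, DR without RU486, AL with RU486 and AL without RU486, and each had 6 pools. The label DR stands for dietary restriction, applied for 10 days. AL is the label of the other diet, which the labels do not spell out. Flies of every group had the genotype +/+; Act5c-GS-Gal4/+; P{GD3482}v8105/+, which joins a GeneSwitch driver under Act5c control with an RNAi insertion. GeneSwitch is a form of the Gal4 activator that works when the drug RU486 (mifepristone) is fed. The driver is broadly expressed, and RU486 was not given to flies without the insertion, so what RU486 does by itself and what it does through the transgene cannot be told apart. A pool averages over flies, and whole-fly RNA does not separate fewer cells of a type from less RNA per cell. Nothing in the labels says how pools were raised, so p-values measure the spread between these pools.

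Flies under restricted food are known to change reproduction, metabolism and immune activity. In whole females, transcripts known to differ widely between animals include antimicrobial peptides, which are switched on by infection, digestive enzymes of the gut, which follow the food, and eggshell proteins, which are made in short windows of egg formation. The array names transcripts by FlyBase number alone. Of the 100 members, 0 could be paired with a gene symbol, as was the case for 16593 of the 16637 transcripts, so no member is assigned to any of these classes. Lists of 12 antimicrobial peptide, 15 digestive enzyme and 12 eggshell symbols found 0 members, because the names could not be matched. Markers of sex or tissue could not be checked for the same reason.

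The median SD of the members lay between 0.365 and 0.740 log2, with a middle value of 0.409, and the middle value over all 12134 transcripts was 0.130. The last member, FBtr0076312, and the first transcript outside, FBtr0088315, both had 0.365. The 4 most variable members were FBtr0086620 (0.740), FBtr0085612 (0.730), FBtr0091694 (0.620) and FBtr0085614 (0.607). Members were found at all levels, from 8.10 to 13.9 log2, with 26, 37, 25 and 12 of them in 4 equal bins of the 12134 transcripts from dimmest to brightest. The spread of the members was not equal over groups. Their middle SD was 0.528 log2 on DR with RU486 and 0.463 on DR without it, against 0.383 on AL with RU486 and 0.336 on AL without it. The same values over the 12134 transcripts were 0.135 and 0.120 on DR, against 0.174 and 0.110 on AL. For 46 members the widest spread was on DR with RU486, for 27 on DR without RU486, for 19 on AL with RU486 and for 8 on AL without RU486.

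**Figure D1:**
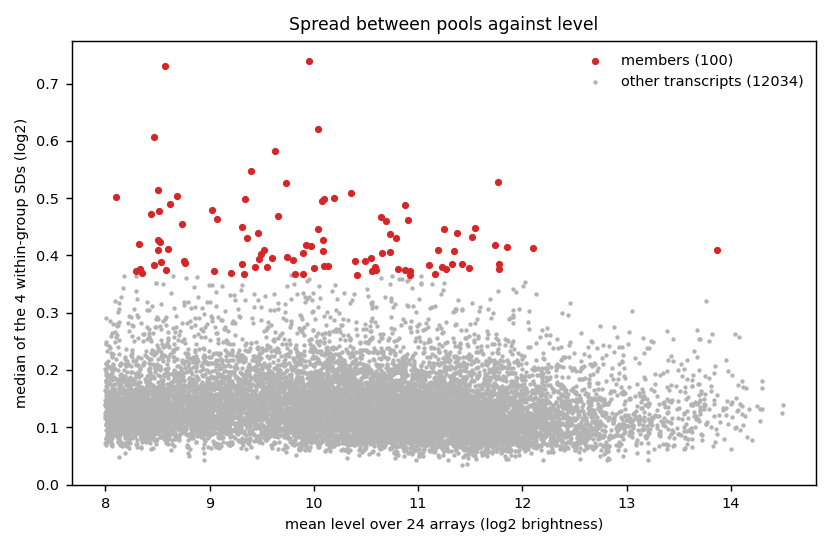
Median of the 4 within-group SDs (log2) of each transcript against its mean level over 24 arrays (log2 brightness), with the 100 members in red and the other 12034 transcripts above a mean of 8 in grey. Members occur over most of the range of levels, and the highest lies at 0.740 log2.

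A pair of arrays stood apart over all transcripts. The SD of deviations from the group mean was 0.365 log2 for AL with RU486 pool 1 and 0.228 for DR with RU486 pool 3, and it was between 0.101 and 0.159 for the other arrays. Results that rest on these arrays are given with and without them. The level that 95% of averages of 8 random control probes stay under on an array was taken as its background. It lay between 7.35 and 7.60 log2 on DR, against 7.45 to 7.68 on AL. Of the members, 95 were above background on all pools of DR with RU486 and 98 on all pools of DR without it, against 86 on AL with RU486 and 91 on AL without it. On AL with RU486, 3 members were above it on no pool.

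The differences between pools were seen alike by separate probes of a transcript. When odd- and even-placed probes were averaged apart, Pearson's r between their deviations over 24 arrays had a median of 0.937 among members, and the lowest value was 0.657. It exceeded 0.9 for 73 members and was below 0.5 for 0. Over the 12134 transcripts the median was 0.629, with 7.95% above 0.9. Both averages come from the same labelled cDNA, so this agreement describes probes and not a second sampling of the flies, and wide spread itself raises r.

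**Figure D2:**
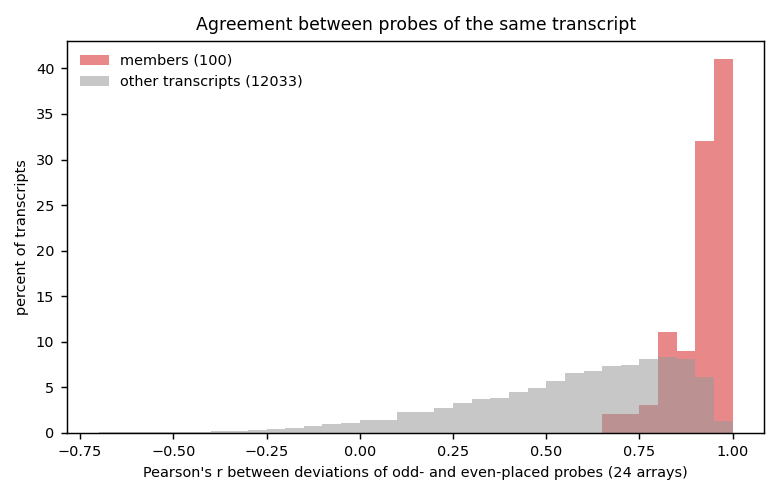
Percent of transcripts against Pearson's r between the deviations of odd- and even-placed probes over 24 arrays, for the 100 members (red) and 12033 other transcripts with a mean above 8 and both kinds of probe (grey). Members gather near 1, with a median of 0.937.

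The members did not vary as 1 block. Over the 4950 member pairs, r between deviations had a median of 0.12, with 4.61% of pairs above 0.7 and 1.52% below -0.5. Over all transcripts above a mean of 8 these shares were 3.39% and 9.10%. The first 2 principal axes held 30.5% and 13.1% of the members' variation. Average-linkage clustering, with the tree divided at r = 0.5, put 86 members into 11 sets of at least 5, called A to K by size. The other 14 members joined no set. Set A held 15 members, sets B, C and D held 9 each, E 8, F 7, G, H, I and J 6 each, and K 5. The median r within a set lay between 0.62 in set C and 0.86 in set I. All these correlations rest on 24 arrays, and members on an array share its labelling and brightness. The sets were formed on these same deviations, so high r within them follows from the clustering. On the AL arrays alone the median r was 0.25 in set G, 0.28 in set J and 0.46 in set E, against 0.74, 0.92 and 0.86 on DR. In sets A, C, D and K it was higher on AL than on DR.

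**Figure D3:**
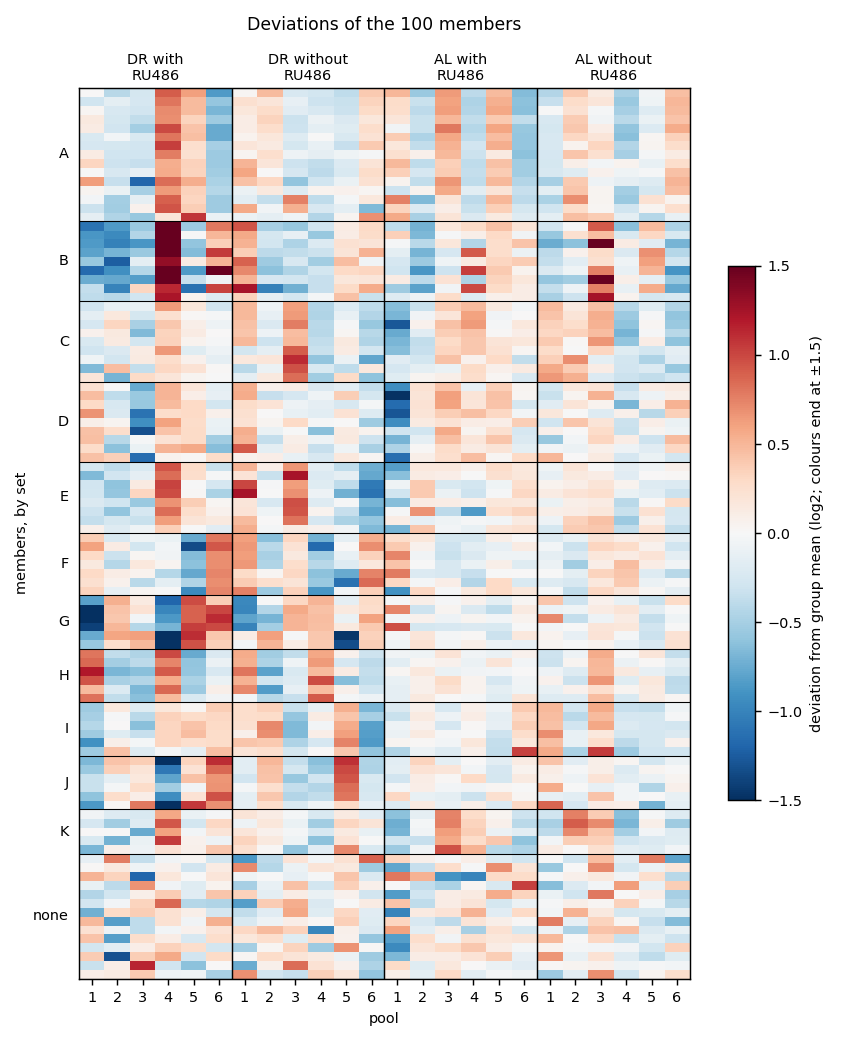
Deviation of each of the 100 members (rows, grouped by set A to K and then by no set) from its group mean on each of the 24 arrays (columns, 6 pools per group), in log2, with red for higher and blue for lower. The sets were formed on these deviations, so members of a set share high and low pools. An example is pool 4 of DR with RU486 in set B, where the mean deviation was 1.85.

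Transcripts with neighbouring FlyBase numbers often varied together. There were 11 member pairs whose numbers differ by 1 or 2, and their r had a median of 0.91, with a range of 0.45 to 0.99, and 8 of the pairs fell in the same set. FBtr0085612 and FBtr0085614 had the highest r of all pairs, at 0.99. The transcripts could share a gene or probe sequence, which was not tested, and no probe's row of values was identical to another's. An exception was the run FBtr0087653, FBtr0087654 and FBtr0087655. FBtr0087654 and FBtr0087655 were both in set K and had an r of 0.93, whereas FBtr0087653 was in set B and had r of 0.45 and 0.46 with them. FBtr0080563 in set E and FBtr0080564 in set A, with an r of 0.61, were likewise placed apart.

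The share of members called for diet was near that of all transcripts without RU486 and above it with RU486, with larger differences at the median. In the comparison of DR with AL, limma fits over all 16637 transcripts with Benjamini-Hochberg adjustment at 0.05 found, without RU486, 43 members higher on DR and 26 lower, while 31 did not pass. Of all transcripts, 29.7% were higher and 35.5% lower. With RU486, 38 members were higher on DR and 22 lower, and 40 did not pass, where 24.5% of all transcripts were higher and 24.3% lower. The members' share higher was thus above that of all transcripts, and the share lower was below it without RU486 and close to it with RU486. Without both arrays that stand apart, 46 members were higher and 26 lower without RU486, and 37 and 22 with it. When each array was centred on its median, the median difference of all transcripts without RU486 was -0.20 log2, against -0.07 as deposited. Then 40 members were higher and 30 lower without RU486, and 23.9% and 52.6% of all transcripts. In both directions together, 69 members were called without RU486 and 60 with it, against 65.3% and 48.8% of all transcripts. All transcripts include those below a mean of 8, which could not be members, and the called share among the 12134 above it is not given here. The median absolute difference of the members was 0.93 log2 without RU486 and 0.76 with it. Over the 12134 transcripts with a mean above 8 it was 0.36 and 0.25, and over all transcripts 0.27 and 0.19. Without RU486, 26 members were called and at least 2-fold higher and 20 at least 2-fold lower, and of all transcripts 6.29% and 0.541% were. The standard errors were also larger, with a median of 0.227 log2 among members and 0.0804 over all transcripts, since the spread that chose the members enters their tests.

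Both diet comparisons were called in the same direction for 35 members higher on DR and 22 lower, and 0 members were called in opposite directions. The same counts over all transcripts were not made, so these are not read as particular to the members. The comparisons share no arrays, but the fit gave them 1 shared estimate of the spread. Another 8 members were called higher only without RU486 and 3 only with it, 4 were called lower only without it, and 28 passed in neither. A call in 1 comparison alone does not show a difference between them. The pools of DR and AL did not overlap for 29 members higher and 18 lower on DR without RU486, which was so for 24% and 24.2% of all transcripts. With RU486 they did not overlap for 17 higher and 9 lower, and over all transcripts for 14.1% and 10.9%. In both directions together these were 47 members, against 48.3% of all transcripts, and 26 members, against 25%.

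**Figure D4:**
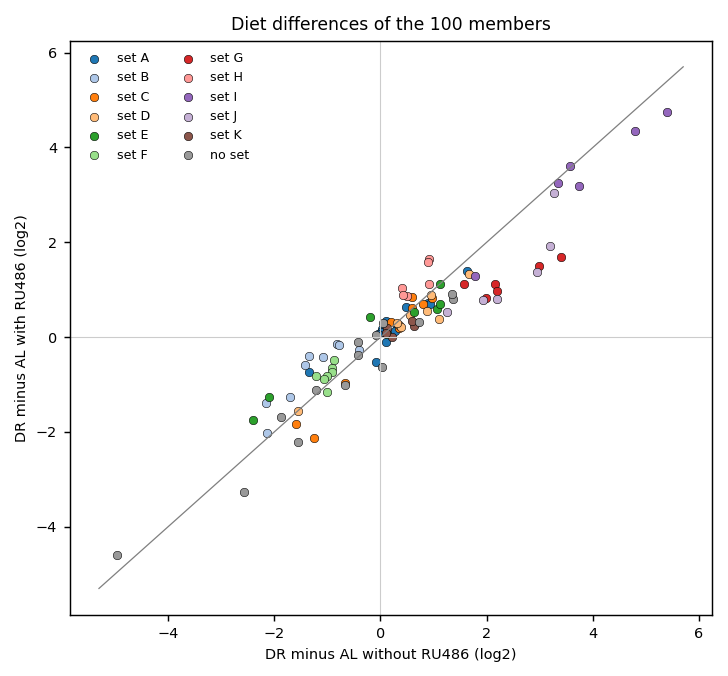
Difference DR minus AL of each member with RU486 against the same difference without RU486 (log2), coloured by set, with the line of equality. Members of sets G, I and J lie at the upper right, sets B and F at the lower left, and FBtr0089324, which is in no set, at -4.95 and -4.60.

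The members fell into sets whose members all moved the same way with diet and sets whose members were divided. Members of a set co-vary over the pools, so counts of members within a set, here and below, are not counts of separate observations. In set G, for example, FBtr0078596 and FBtr0078597 had an r of 0.98, and FBtr0072725 and FBtr0072726 of 0.95. Sets G, I and J were higher on DR in all 6 of 6 members each, without and with RU486. Set H was higher in 3 of 6 members without RU486 and in 6 of 6 with it. Set F was lower on DR in 7 of 7 members without RU486 and 6 of 7 with it, and set B in 6 of 9 without and 3 of 9 with it. In sets A, C, D and E members that rose and members that fell on DR stood side by side. Set K had 2 of 5 members higher without RU486 and 0 of 5 called with it. Without both arrays that stand apart, the counts with RU486 were 5 of 7 lower in set F and 5 of 6 higher in set J.

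Set I had the largest diet differences. Its mean level was 11.32 ± 0.36 log2 on DR with RU486 against 7.92 ± 0.24 on AL with RU486, and 11.79 ± 0.51 on DR without RU486 against 8.02 ± 0.41 on AL without it (SD, n = 6 each). FBtr0085029 in this set had levels of 13.02, 13.71 and 14.01 (lowest, median and highest pool) on DR without RU486, against 7.66, 7.91 and 9.26 on AL without it. The lowest DR pool lay far above the highest AL pool, and the difference was 5.40 ± 0.26 log2 (SE, limma adjusted p = 2.46e-14). With RU486 the levels were 12.31, 12.77 and 13.29 on DR, against 7.65, 7.96 and 9.13 on AL, a difference of 4.75 ± 0.26. FBtr0077058 had 11.67, 12.59 and 13.21 on DR without RU486, against 7.40, 7.47 and 8.27 on AL without it. Its difference was 4.80 ± 0.23 without RU486 and 4.36 ± 0.23 with it, and the pools again did not overlap. On AL it was above background on 4 of 6 pools with RU486 and 2 of 6 without, so part of the AL values are at the floor of the array. The leading member of set I, FBtr0085056, had the highest mean r with the rest, 0.88. It was 3.74 ± 0.19 log2 higher on DR without RU486 and 3.19 ± 0.19 with it. Its AL pools lay at 7.18 to 8.11 without RU486 and 7.15 to 7.79 with it, mostly below background. These sizes therefore also include values at the floor.

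In set J the DR levels were lower with RU486 than without it. The set's mean was 9.40 ± 0.70 log2 on DR with RU486 and 10.61 ± 0.50 on DR without it, against 7.99 ± 0.10 on AL with RU486 and 8.14 ± 0.20 on AL without it. Its leading member FBtr0085035 had 10.07, 10.45 and 11.80 on DR without RU486, against 7.23, 7.48 and 7.93 on AL without it. With RU486 it had 7.76, 9.69 and 10.44 on DR, against 7.25, 7.35 and 7.74 on AL. Neither pair of groups overlapped, and the differences were 3.19 ± 0.31 and 1.92 ± 0.31 (SE). FBtr0085035 was above background on 2 of 6 AL pools without RU486 and 1 of 6 with it, so these sizes include values at the floor. The set's member with the largest diet difference, FBtr0087912, was 3.26 ± 0.32 higher on DR without RU486 and 3.05 ± 0.32 with it. This transcript and the others named below only as the ends of a set's range were singled out after their values were seen.

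Set G showed the widest spread on DR with RU486 among the sets raised by diet. Its mean level on that diet with RU486 was 8.10, 9.66, 9.37, 8.01, 10.18 and 9.91 log2 in pools 1 to 6. Pools 1 and 4 thus lay within the range of AL without RU486, 7.92 to 8.38, and the other 4 pools lay above it. Without RU486 the DR pools lay between 9.97 and 11.02. FBtr0078597 had 9.74, 11.44 and 11.83 on DR without RU486, against 7.49, 7.82 and 8.02 on AL without it, a difference of 3.40 ± 0.36 (SE, limma adjusted p = 1.27e-08). With RU486 it had 7.41, 9.88 and 10.50 on DR, against 7.39, 7.71 and 7.88 on AL, and the groups overlapped with a difference of 1.68 ± 0.36 (limma adjusted p = 0.00044). The leading member FBtr0073141 was 2.19 ± 0.27 higher on DR without RU486. With RU486 it was above background on 0 of 6 AL pools and at least 0.81 log2 higher on DR (limma adjusted p = 0.0045), with measured means of 8.38 and 7.42.

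Without RU486 the diet differences of set H were smaller, with a median of 0.69 log2, against 2.17 in G, 3.66 in I and 2.57 in J. With RU486 its median was 1.09, against 1.13 in G, 3.42 in I and 1.08 in J. These medians include FBtr0086268 of set H and FBtr0073141 and FBtr0078596 of set G, which were above background on 0 of 6 AL pools with RU486. The mean level of set H was 8.98 ± 0.64 log2 on DR with RU486 and 9.13 ± 0.49 on DR without it, against 7.79 ± 0.08 on AL with RU486 and 8.46 ± 0.26 on AL without it. FBtr0087676, the leading member, had 9.29, 9.75 and 11.03 on DR with RU486, against 8.35, 8.40 and 8.65 on AL with RU486, a difference of 1.59 ± 0.24 (SE). Without RU486 it had 9.71, 10.11 and 10.81 on DR, against 8.99, 9.30 and 9.90 on AL, where the pools overlapped and the difference was 0.89 ± 0.24. The interaction terms of its 6 members did not pass and were 0.21 or more. That of FBtr0086268, the highest, is given no size, because it was above background on 0 of 6 AL pools with RU486. Although sets G and H were both higher on DR, their mean deviations had an r of -0.63 over the arrays. The largest opposite deviations were in DR with RU486, at -1.10 in G and 0.85 in H in pool 1, and at -1.20 and 0.76 in pool 4. In DR without RU486 the sets were opposite in pool 1, at -0.61 in G and 0.51 in H. In pool 4 of that group both were high, at 0.44 and 0.68. The r of -0.63 was taken over all groups together and rests largely on pools 1 and 4 of DR with RU486. It does not show a general opposition of the sets. The lowest r of all member pairs, -0.74, was between FBtr0073141 of set G and FBtr0087676 of set H.

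Sets G to J were near background on AL. Of 36 member values per set, 20 in G, 22 in H, 26 in I and 28 in J were above background on AL with RU486, and 28, 35, 26 and 29 on AL without it. In sets A to F and K all member values of both AL groups were above it. Spread at the floor of the array is small, so the lower SDs on AL in these sets cannot be read apart from their low level. Members such as FBtr0085035 of set J, with means of 7.41 on AL with RU486 and 7.51 on AL without it, passed the minimum of 8 through DR. That such members were higher on DR follows in part from the choice. For members of sets G and J with AL means below 8, the minimum also favoured high levels on DR without RU486. An example is FBtr0073141 of set G, with 9.83 on DR without RU486, 8.38 on DR with it and 8.32 over all arrays. Lower levels with RU486 on DR and negative interaction terms of such members therefore also follow in part from the choice.

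**Figure D5:**
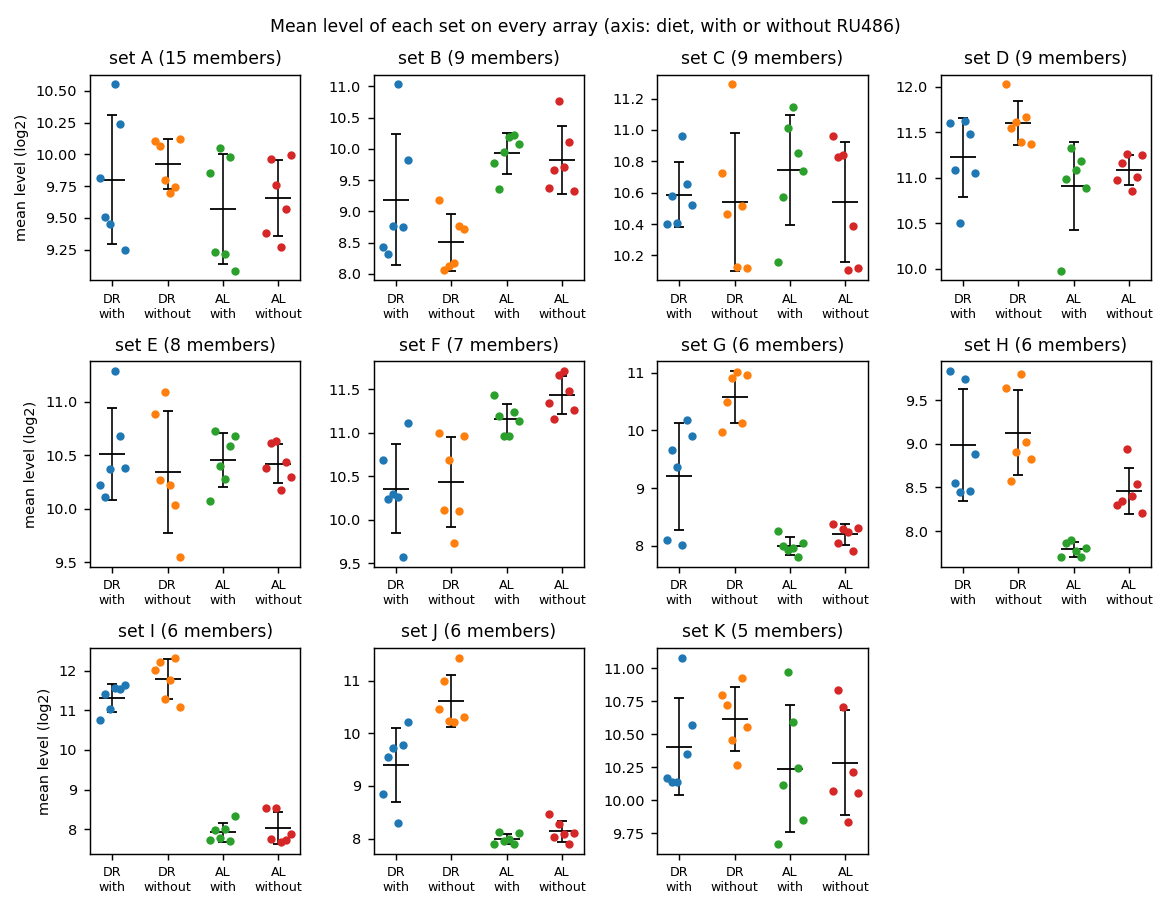
Mean level (log2) of each set on every array, with points for pools, a horizontal mark for the group mean and bars for ±1 SD (n = 6), for DR with RU486, DR without RU486, AL with RU486 and AL without RU486 from left to right. Sets G, I and J lie higher on DR, where set G spans 8.01 to 10.18 with RU486, and set F lies lower on DR.

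Set F was lower on DR. Its mean was 10.36 ± 0.52 log2 on DR with RU486 against 11.15 ± 0.18 on AL with RU486, and 10.43 ± 0.52 on DR without RU486 against 11.43 ± 0.22 on AL without it. FBtr0072902 had 10.13, 10.94 and 11.47 on DR without RU486, against 11.71, 11.90 and 12.10 on AL without it. No pools overlapped, and the difference was -1.06 ± 0.22 (SE). With RU486 it was -0.89 ± 0.22, with overlap. The 7 members had differences between -1.21 and -0.88 without RU486 and between -1.16 and -0.48 with it. The member that did not pass with RU486 was FBtr0273329 (limma adjusted p = 0.053).

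Set B held the 4 most variable transcripts of all, and its diet differences with RU486 depended in part on a single pool. Its mean level on DR with RU486 was 8.43, 8.32, 8.77, 11.04, 8.75 and 9.83 log2 in pools 1 to 6, against 9.78, 9.35, 9.94, 10.19, 10.23 and 10.07 on AL with RU486. Pool 4 of DR lay above every AL pool with RU486, while 4 of the other DR pools lay below all of them. On DR without RU486 the pools lay between 8.06 and 9.18, against 9.32 to 10.76 on AL without it, with no overlap. Without pool 4 of DR with RU486, 5 of 9 members rather than 3 were lower on DR with RU486, and the median difference was -0.91 rather than -0.43 log2. The number lower without RU486 was then 8 rather than 6, through the shared estimate of the spread, while the median difference without RU486 stayed at -1.35 log2.

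Among the members of set B, FBtr0086620 had 7.97, 8.97 and 10.22 on DR without RU486, against 9.58, 10.25 and 11.10 on AL without it. The difference was -1.35 ± 0.40 (SE, limma adjusted p = 0.0050), and with RU486 it was -0.40 ± 0.40 and did not pass. FBtr0085612 had 7.58, 7.86 and 11.56 on DR with RU486, against 8.57, 9.09 and 9.44 on AL with RU486. All pools but 2 of that DR group lay below the AL pools, yet the difference was -0.43 ± 0.50 (limma adjusted p = 0.51). Without pool 4 of DR with RU486 it was -1.02 and passed (limma adjusted p = 0.023). Without RU486 its difference was -1.08 ± 0.50 (limma adjusted p = 0.062), and it passed in 6 of 31 alternatives. FBtr0085614 had -0.14 ± 0.44 with RU486 and -0.82 ± 0.44 without it, and passed in neither. FBtr0091694 was lower in both, with a difference of -2.16 ± 0.43 without RU486, where pools did not overlap, and of -1.39 ± 0.43 with it. The 2 members most typical of the set, FBtr0086621 and FBtr0087653, were also lower in both. Their differences were -1.71 ± 0.41 and -2.13 ± 0.32 without RU486, and -1.25 ± 0.41 and -2.03 ± 0.32 with it.

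In sets A, C, D and E, co-variation between pools did not go with a shift by diet common to all members. Set E had 4 members higher, 2 lower and 2 not called without RU486, although its lowest pairwise r was 0.56. With RU486 it had 3 higher and 2 lower, and without both arrays that stand apart 1 higher and 2 lower. FBtr0080563 of this set had 9.99, 10.57 and 11.65 on DR without RU486, against 12.68, 13.13 and 13.36 on AL without it, a difference of -2.40 ± 0.21 (SE). FBtr0071304 of the same set had 11.53, 12.31 and 13.26 on DR without RU486, against 10.87, 11.30 and 11.42 on AL without it, a difference of 1.13 ± 0.25. In neither did the pools overlap. The leading member FBtr0079516 did not pass, with -0.20 ± 0.22 without RU486 and 0.42 ± 0.22 with it.

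Set C had 3 members higher, 3 lower and 3 not called in each diet comparison. Its differences ran from -1.59 to 0.97 without RU486 and from -2.13 to 0.84 with it. FBtr0082154 was 0.80 ± 0.21 higher on DR without RU486 and 0.71 ± 0.21 with it. FBtr0086643, the member most typical of the set, had 0.20 ± 0.21 and 0.31 ± 0.21 and did not pass. FBtr0083971 lay at the other end with RU486, with 9.55, 10.35 and 10.52 on DR against 12.12, 12.40 and 12.62 on AL, a difference of -2.13 ± 0.21.

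Set A, the largest, had 5 members higher, 1 lower and 9 not called without RU486, and 4, 1 and 10 with it. Its median difference was 0.10 log2 without RU486 and 0.18 with it. The 2 members most typical of it were close between the diets. FBtr0113872 had 8.97, 9.24 and 9.82 on DR without RU486, against 8.83, 9.35 and 9.77 on AL without it, a difference of 0.03 ± 0.27 (SE). FBtr0114157 had 10.59, 10.95 and 11.25 on DR without RU486, against 10.32, 10.94 and 11.37 on AL without it, a difference of 0.05 ± 0.23. In both the pools of each diet covered nearly the same range. The ends of the set were FBtr0072634, 1.62 ± 0.23 higher on DR without RU486, and FBtr0080564, at -1.35 ± 0.22.

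Set D had 5 members higher, 1 lower and 3 not called without RU486, and 2, 1 and 6 with it. FBtr0080785 had 11.99, 12.30 and 12.87 on DR without RU486, against 11.03, 11.52 and 11.57 on AL without it, with no overlap and a difference of 0.96 ± 0.20 (SE). FBtr0071854 had a difference of 0.39 ± 0.26 and did not pass. This set rested in part on the arrays that stood apart. Its mean deviation was -0.93 on AL with RU486 pool 1 and -0.72 on DR with RU486 pool 3, and the median r within the set was 0.51 without both arrays and 0.64 with them. Without both arrays FBtr0071854 passed for diet without RU486, at 0.39 log2 (limma adjusted p = 0.039). The set then had 7 members higher and 1 lower without RU486, and 4 higher and 1 lower with it. Both arrays left out had RU486, so the differences without RU486 stayed the same, with a median of 0.56 log2. The calls gained without RU486 came through the shared estimate of the spread.

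Set K included FBtr0087654 and FBtr0087655, which were 0.64 ± 0.21 and 0.60 ± 0.20 log2 higher on DR without RU486. The other 3 members had differences of 0.10 to 0.22 and did not pass. Of the 14 members in no set, FBtr0089324 and FBtr0078025 had the lowest diet differences of all members. FBtr0089324 had 7.28, 8.10 and 8.87 on DR without RU486, against 12.92, 12.98 and 13.05 on AL without it. Its SD was 0.55 on DR without RU486, against 0.05 on AL without it, and 1 of the 6 DR pools was below background. The difference was -4.95 ± 0.22 (SE) without RU486 and -4.60 ± 0.22 with it. FBtr0078025 had 7.63, 7.92 and 8.94 on DR with RU486, against 10.97, 11.36 and 11.78 on AL with RU486, a difference of -3.27 ± 0.21. Without RU486 its difference was -2.56 ± 0.21, and in both the pools did not overlap.

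RU486 changed few members on AL. In limma 0 members were higher and 1 was lower with RU486 on AL, where 0.289% of all transcripts were higher and 0.337% lower. At an unadjusted p under 0.05 the number of members was 17, against 8.45% of all transcripts. The member that passed was FBtr0075620 of set H, with 7.50, 7.64 and 7.86 on AL with RU486, against 8.32, 8.76 and 8.95 on AL without it. The pools did not overlap, the difference was -1.05 ± 0.22 (SE, limma adjusted p = 0.020), and 4 of the 6 pools with RU486 were above background. The call was lost without AL without RU486 pool 3 or pool 5, with an adjusted p of up to 0.056. All 6 members of set H had differences between -1.05 and -0.32, and the other 5 did not pass.

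On DR, 0 members were higher and 14 lower with RU486 in limma, where 5.95% of all transcripts were higher and 7.78% lower. In both directions together 14 members were called, against 13.7% of all transcripts, and 27 had an unadjusted p under 0.05, against 29.0%. Of the 14, 6 were all members of set G, 6 were all members of set J, 1 was FBtr0085056 of set I and 1 was FBtr0112357, which is in no set. The number was 22 without AL with RU486 pool 1, 15 without both arrays that stand apart and 11 without DR without RU486 pool 5. Set G had 4 of 6 members lower without DR with RU486 pool 4, and set J kept 6 of 6. FBtr0078597 was lowest, at -1.82 ± 0.36 (SE, limma adjusted p = 0.0026), with pools that overlapped. FBtr0076929 of set J had 8.05, 9.33 and 9.98 on DR with RU486, against 10.00, 10.35 and 11.55 on DR without it, a difference of -1.44 ± 0.25 with no overlap. This comparison and that of diet without RU486 share the DR pools without RU486, so a high draw of those pools enters both. The minimum level of 8 enters too for members of sets G and J with AL means below it, as said above. FBtr0112357 had 9.16, 9.41 and 9.78 on DR with RU486, against 9.99, 10.55 and 11.20 on DR without it, a difference of -1.09 ± 0.20. Unlike sets G and J, it was lower on DR than on AL, with differences of -1.54 ± 0.20 without RU486 and -2.20 ± 0.20 with it.

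The diet effect itself differed with RU486 for 5 members, all with a less positive effect with the drug, and for 0 in the other direction. Of all transcripts 3.19% and 3.33% were called, and 15 members had an unadjusted limma p under 0.05, against 24.4% of all transcripts. The count of 5 was 8 without AL with RU486 pool 1 and 7 without DR with RU486 pool 6. It was 3 without any one of AL with RU486 pool 4, AL without RU486 pool 4 or 5, or DR without RU486 pool 2 or 4. FBtr0078597 of set G had an interaction term of -1.72 ± 0.51 log2 (SE). In set J, FBtr0076929 had -1.59 ± 0.35, FBtr0086963 had -1.39 ± 0.33 and FBtr0075475 had -1.15 ± 0.30. The call of FBtr0078597 was near the threshold (limma adjusted p = 0.043) and was lost in 17 of 31 alternatives. The call of FBtr0078596 of set G (limma adjusted p = 0.034) is given no size, because it was above background on 0 of 6 AL pools with RU486 and 1 of 6 without it. All 5 calls lie in sets G and J, so the choice by the minimum level enters them where AL means lay below 8.

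Single pools stood out in several sets at once. DR with RU486 pool 4 was high in sets B (1.85 log2 above its group mean), E (0.78), H (0.76), A (0.75) and K (0.67), and low in sets G (-1.20) and J (-1.10). Pool 1 of the same group was low in G (-1.10), I (-0.57), J (-0.56) and B (-0.76), and high in H (0.85). Pool 5 was high in G (0.98) and low in F (-0.79). The mean deviations of sets G and J had an r of 0.51 over 24 arrays, those of H and J -0.60, and those of C and E 0.66. These were taken over all groups together and need not hold within each. Sets G and J were low together in DR with RU486 pools 1 and 4. In DR without RU486 they went opposite ways in pools 2 to 6, for example at 0.44 in G and -0.39 in J in pool 4. In pool 5 they were at -0.46 and 0.83. Over the 55 pairs of sets, r ran from -0.63 to 0.66 with a median of 0.16. The deviation of the random probes' median moved with some sets, at r of 0.57 with set G, 0.44 with J, -0.46 with B and -0.50 with H. Its range within a group was small, for example 6.98 to 7.02 log2 on DR without RU486, and its part in these results was not tested. With the array median, set means had r between -0.19 and 0.36.

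The departures of pools were also set against the diet effect measured in the other drug state, which shares no arrays with them. Over the 100 members, r between a pool's deviations and that effect ran from -0.47 to 0.48. The lowest was DR with RU486 pool 4, with a slope of -0.23, a fitted trend toward AL levels that not all members followed. Its mean deviation was toward AL in sets B (1.85), G (-1.20) and J (-1.10), and away from AL in sets H (0.76) and I (0.24). These deviations also took part in the choice of members. The highest r was that of DR with RU486 pool 5, with a slope of 0.14. For pool 4, r over all transcripts above a mean of 8 was -0.11, with a slope of -0.03.

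Many transcripts outside the 100 followed the sets with smaller amplitude. Of the 12034 other transcripts above a mean of 8, 292 had r above 0.8 with the mean deviation of set D, 50 with set A and 34 with set C, but 2 with set B. Without both arrays that stand apart these counts were 91 with set D, 98 with set A, 45 with set C and 2 with set B. FBtr0113921 had an r of 0.99 with set A and FBtr0113929 an r of 0.97, with median SDs of 0.232 and 0.237 log2. FBtr0081201 and FBtr0082153 followed set C, with r of 0.95 and 0.92, and FBtr0084851 and FBtr0088173 followed set D, with 0.96 and 0.95. FBtr0086214 and FBtr0075174 were closest to set B, with 0.85 and 0.82. The diet differences of these 2 had opposite signs, at -0.71 ± 0.17 (SE, passed) for FBtr0086214 and 0.28 ± 0.13 (limma adjusted p = 0.058) for FBtr0075174 without RU486, and at -0.64 ± 0.17 and 0.47 ± 0.13 with RU486, where both passed.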

How the data were processed

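Per the labels, RNA of 24 pools was extracted, amplified and Cy3-labelled in an order randomized over the groups. The deposited values are log2 brightness for 137090 probes, with the base taken from their range of 6.09 to 16.5. The submitters' processing notes name limma, and the background correction, normalization and array design build are not given in the sources used here. Values were used as deposited. Random probes (4091) set the background, and the others were averaged per transcript by the first 11 characters of the probe name, with 8 probes for 16617 of 16637 transcripts. Groups were compared with limma 3.58.1 in R 4.3.3 (lmFit, eBayes), with 1 mean per group and Benjamini-Hochberg adjustment over all transcripts at 0.05, a procedure tested on simulated data. Differences are DR minus AL, and with RU486 minus without. A value against a group below background on every array is given as at least N, with the background in place of lower values. Alternatives were quantile normalization, centring, probe medians, array weights, the pool number as a block, testing only transcripts with a mean above 8, and leaving out arrays.

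Transcripts are named by rank: the 4 with the highest SD, the 2 most typical members of the 4 largest sets and the 2 closest transcripts outside them, the 2 highest and 2 lowest per diet comparison, and the highest and lowest called for RU486 on each diet and for the interaction. The leading members of the 7 smaller sets, and all others named, were chosen after their values were seen. The members and lists were chosen with earlier results of these data known. The number of arrays limits precision. No slide or date is given in the sources used here, so batches could not be entered. Figures were drawn with matplotlib 3.10.9.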

Additional observations from a re-analysis of the deposited data

Results flagged for a closer look

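Over the 35 transcripts named by rank, 140 groups of 6 pools were examined for a single far pool, by the gap between the most extreme pool and its nearest neighbour as a share of the group's range. In 13 of them (9.29%) this share passed the 95% critical value of 0.625, which chance exceeds in about 5% of groups not chosen for their spread. The members were chosen for the spread of these values and share their pools within a set, so the count is a description and is not read against that rate. DR with RU486 pool 4 was the highest pool for FBtr0085612 (0.657), FBtr0085614 (0.784), FBtr0075174 (0.760) and FBtr0087655 (0.740). AL without RU486 pool 3 was the highest for FBtr0085612 (0.696) and FBtr0085614 (0.706). AL with RU486 pool 1, which stands apart over all transcripts, was the lowest for FBtr0071854 (0.722), FBtr0084851 (0.709), FBtr0088173 (0.649) and FBtr0079516 (0.819). The others were AL with RU486 pool 4 for FBtr0075174 (0.692, highest), AL with RU486 pool 6 for FBtr0085029 (0.640, highest) and DR without RU486 pool 5 for FBtr0078597 (0.694, lowest).

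The diet response of FBtr0078597 was smaller with RU486 than without it, with an interaction term of -1.72 ± 0.51 log2 (SE, limma adjusted p = 0.043). The call was lost in 17 of 31 alternatives, the pool number as a block among them. Over all 31 the term lay between -2.01 and -1.32, and the adjusted p reached 0.071.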

How the results depend on the processing

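No call of the named transcripts turned round in any of the 31 alternatives, which were 24 fits without 1 array each and 7 others. Of 2263 comparisons for 73 results, 36 lost their call and 28 gained one, in 14 results. Without 1 array, the members higher and lower on DR numbered 39 to 44 and 25 to 29 without RU486, and 36 to 42 and 20 to 24 with RU486. For RU486 on AL the counts were 0 higher and 0 (without AL without RU486 pool 3 or 5) to 2 lower (without DR with RU486 pool 4), for RU486 on DR 0 to 1 and 11 to 22, and for the interaction 0 to 1 and 3 to 8. With array weights 6 members were lower with RU486 on AL and 1 was higher on DR, and the interaction had 3 higher and 11 lower, and the cause was not tested. Complete linkage, which joins fewer transcripts by construction, put 52 members into sets, against 86. The choice of members depends on the measure of spread, with 57 of the 100 shared when the median absolute deviation is used, 68 with probe medians and 95 after quantile normalization. Without both arrays that stand apart 79 were shared. Without 1 array the sets held 76 to 87 members, the largest held 14 to 21, the median r between members was 0.080 to 0.137 and the median r between odd- and even-placed probes 0.931 to 0.951.

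The labels do not say whether pools with the same number belong together. Deviations of such pools had r between -0.31 and 0.25, with 1 array closest to one of its own number. With the pool number as a block (a paired fit), the counts were 42 higher and 26 lower for diet without RU486, 37 and 24 with it, 0 and 1 for RU486 on AL, 0 and 13 on DR, and 0 and 4 for the interaction. The calls that changed among named transcripts were the interaction of FBtr0078597, and the diet effect without RU486 of FBtr0084851 (lost) and FBtr0075174 (gained). Signal near background on AL limits the differences of sets G to J there.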
